A study of Homo sapiens with 6 samples.

Results

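miR-191 and miR-425 are cut from neighbouring hairpins, MIR191 and MIR425, that lie in an intron of the gene DALRD3. The data give a count for each of their 4 mature arms, hsa-miR-191-5p, hsa-miR-191-3p, hsa-miR-425-5p and hsa-miR-425-3p, which were found by name in both count tables and are 4 of the 2588 miRNAs listed. The species prefix is left out from here on. The arms were measured by small RNA sequencing in A549, a human lung adenocarcinoma cell line carrying a doxycycline-inducible short hairpin RNA against METTL1. METTL1 is the methyltransferase that places N7-methylguanosine (m7G) in tRNAs. All cells had received doxycycline at 200 ng/ml and were taken on day 5, so METTL1 was knocked down in both groups compared. The first group holds 3 libraries of total RNA (A549 METTL1 KD). The other holds 3 libraries of RNA pulled down with an antibody against m7G (A549 METTL1 KD m7G-RIP). The comparison therefore asks which arms the antibody recovers from knockdown cells, and it does not measure the effect of losing METTL1. The groups were deposited separately, so a difference in library preparation or sequencing between them cannot be told apart from recovery by the antibody. Libraries of cells with METTL1, or of a control antibody, were not analysed here.

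Most miRNAs are transcribed as part of a longer RNA, and DROSHA and then DICER trim each hairpin to a short duplex of its 5p and 3p arms. An Argonaute protein usually keeps one arm, the guide, which pairs through its seed with target mRNAs, while the passenger arm is degraded. Hairpins in an intron on the host's strand can be transcribed with the host, and hairpins in the same intron can start from the same transcript. DALRD3 encodes a protein needed for 3-methylcytidine in arginine tRNAs. miR-191 is expressed in so many tissues that it often serves as a reference in qPCR, and both miR-191 and miR-425 have been linked to tumour growth. m7G is best known from mRNA caps, tRNA and rRNA.

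Mature sequences of 3 of the 4 arms are shown because arms from hairpins of a single intron had such different log2 ratios in m7G-RIP. They are RefSeq sequences on GRCh38.p14, written 5′ to 3′ with the seed, bases 2 to 8, in capitals.
miR-191-5p: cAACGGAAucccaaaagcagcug
miR-191-3p: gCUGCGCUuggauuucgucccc
miR-425-3p: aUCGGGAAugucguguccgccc
miR-425-5p is given by name only. Each of the 3 seeds was held by 1 mature miRNA of the reference table, the arm itself, so none of these arms had a seed relative there. The reference holds a sequence for 557 of the 620 miRNAs tested below. Whether reads of similar miRNAs were confused was not tested. The MIR191 hairpin is shown whole because it places both of its arms, in capitals, on either side of the loop.
MIR191: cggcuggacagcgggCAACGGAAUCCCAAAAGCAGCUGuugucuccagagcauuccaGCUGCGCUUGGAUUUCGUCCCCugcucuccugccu

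On GRCh38, MIR191 spans chr3:49020618-49020709 and MIR425 spans chr3:49020148-49020234, both on the minus strand. The gap between them is 383 bases, with MIR191 upstream. In GENCODE release 44 both hairpins lie in intron 1 of DALRD3, in each of the 4 DALRD3 transcripts that span them, and neither touches a DALRD3 exon. None of these 4 carries the MANE Select tag, which marks a gene's representative transcript. MIR191 also lies opposite an intron of NDUFAF3, a gene of the plus strand, and the library kit kept the strand per the study's methods.

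The total RNA libraries held from 9155690 to 10753443 counts and the m7G-RIP libraries from 2649238 to 3106556. All 4 arms had at least 30 counts in every library. miR-21-5p took 47.4% ± 2.48 of total RNA counts but 4.92% ± 0.0875 of m7G-RIP counts (SD, n = 3), so every level below is relative to a changed background of other miRNAs. The culture text of the m7G-RIP samples names another line, Caco-2, against their titles. miR-372-3p, which the study's Caco-2 data list, had 0 counts in each m7G-RIP library, which in the smallest library allows up to 1.13 counts in a library scaled to 1000000 (CPM), and 0, 3 and 1 counts in total RNA. The leukocyte miRNA miR-142-3p had 0 counts in all 6 libraries, and the epithelial miR-200b-3p had from 480 to 3836. No miRNA that would identify A549 alone was checked. The labels do not say whether the replicates were separate cultures, so p-values measure the spread between these libraries, which may be technical.

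Levels below are CPM, counts scaled to a common library total, after TMM scaling, which sets the bulk of miRNAs to a common level between libraries. Each read covers a whole miRNA, so no length correction was made between arms. How well each arm enters a library was not measured, so levels of different arms compare reads and need not match amounts. Of the 620 miRNAs past the expression filter, 146 were enriched in m7G-RIP, 23.5% of those tested, and 181 were depleted, 29.2% (edgeR quasi-likelihood test, adjusted p under 0.05). Scaling by library size alone gave 216 and 141, since it raised the median log2 ratio of all miRNAs by 0.55. Relative to the median of all miRNAs, miR-191-5p lay at 1.08 with TMM and 1.07 without, and miR-425-5p at -3.15 and -3.14. All 4 arms passed the filter. Of these, 1 was enriched, 1 was depleted and 2 did not pass the test. The enriched and the depleted arm are the abundant 5p arms of the 2 hairpins, so the guide strands of a shared intron moved in opposite directions.

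miR-191-5p is the main product of MIR191. Its level in total RNA was 3356, 3306 and 3569 CPM in replicates 1, 2 and 3, and in m7G-RIP it was 5847, 8601 and 6123 CPM. The groups did not overlap, with m7G-RIP higher throughout, a pattern that 29.5% of all miRNAs tested had. The mean rose from 3410 ± 139 to 6857 ± 1516 CPM (SD, n = 3), which is 2.01-fold higher. In edgeR the log2 ratio of m7G-RIP over total RNA was 1.01, with SE 0.15 and an adjusted p of 0.000507. It went from rank 31 of 620 in total RNA to rank 17 in m7G-RIP, and 71.4% of the other tested miRNAs had a lower log2 ratio. Without replicate 2 of m7G-RIP, the library with the highest level, the log2 ratio was 0.64 (edgeR adjusted p 0.00132). The median log2 ratio of all miRNAs tested also fell in that fit, from -0.074 to -0.33. Relative to the median, miR-191-5p lay at 0.98 in that fit and at 1.08 with all libraries.

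miR-425-5p, the main product of MIR425, has been described as a repressor of the natriuretic peptide gene NPPA. In total RNA it stood at 628, 683 and 582 CPM, and in m7G-RIP at 75.7, 83.8 and 43.9 CPM. Again the groups did not overlap, here with m7G-RIP lower throughout, as in 36.5% of all miRNAs tested. The mean fell from 631 ± 50.8 to 67.8 ± 21.1 CPM (SD, n = 3), which is 9.31-fold lower. Its log2 ratio in edgeR was -3.22, with SE 0.24 and an adjusted p of 5.16e-06. Its rank went from 76 to 176, and 9.69% of the other tested miRNAs had a lower log2 ratio. In raw reads it had from 164 to 267 counts in the m7G-RIP libraries, against 4425 to 5749 in total RNA. All libraries are bulk RNA, in which the number of cells with a miRNA and its amount per cell cannot be told apart, and m7G-RIP levels depend on recovery by the antibody as well.

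**Figure D1:**
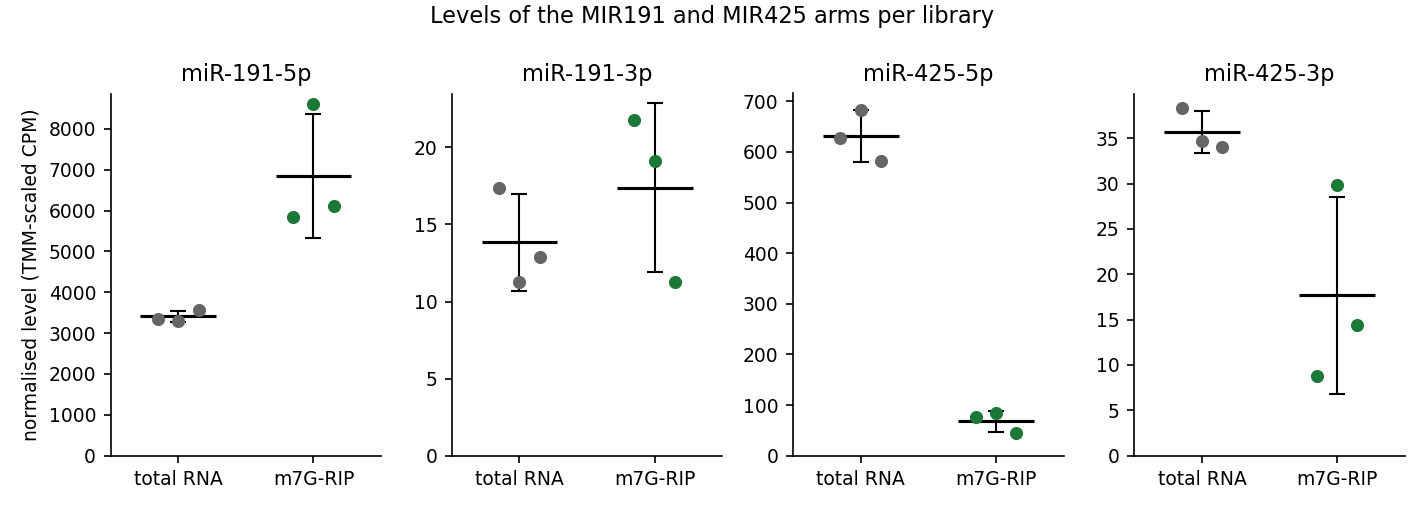
Normalised level (TMM-scaled CPM, linear axes from 0) of each arm in the 3 total RNA libraries (grey points) and the 3 m7G-RIP libraries (green points), in replicate order from left to right. Horizontal lines are means and bars are SD. miR-191-5p was higher in all m7G-RIP libraries, miR-425-5p was lower in all of them, and the m7G-RIP libraries of both 3p arms were widely spread.

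The 3p arms are the scarce strands of both hairpins. miR-191-3p had 17.4, 11.3 and 12.9 CPM in total RNA and 21.8, 19.1 and 11.2 CPM in m7G-RIP. The groups overlapped, since m7G-RIP replicate 3 had the lowest level of all 6 libraries, by a narrow margin. Without TMM scaling it had 13.5 CPM, against 14.3, 9.26 and 10.7 in total RNA, so the groups still overlapped. The log2 ratio was 0.33 (SE 0.40, edgeR adjusted p 0.519), so no direction can be given for this arm. Without m7G-RIP replicate 1 the log2 ratio was -0.091. The median of all miRNAs was -0.24 in that fit, and the arm lay 0.15 above it. These levels rest on 42 to 154 counts per library.

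miR-425-3p had 38.4, 34.7 and 34.1 CPM in total RNA and 8.84, 29.8 and 14.5 CPM in m7G-RIP. After TMM scaling each m7G-RIP library lay below each total RNA library, but replicate 2 came close to them. Without TMM scaling that library had 34.4 CPM and so lay above the 3 total RNA libraries, which had from 28.3 to 31.6. The log2 ratio was -1.01 (SE 0.43, edgeR adjusted p 0.0721), which did not pass the test. Without m7G-RIP replicate 2 it was -1.77 (edgeR adjusted p 0.00424). The call thus depended on that library and, as given at the end, on the test and the filter. The median log2 ratio of all miRNAs tested was -0.33 without that library and -0.074 with it. Relative to the median, miR-425-3p lay at -1.44 without it and at -0.94 with all libraries. A DESeq2 Wald test, the kind of test the study used, gave -1.02 with an adjusted p of 0.0487, on the other side of the threshold.

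**Figure D2:**
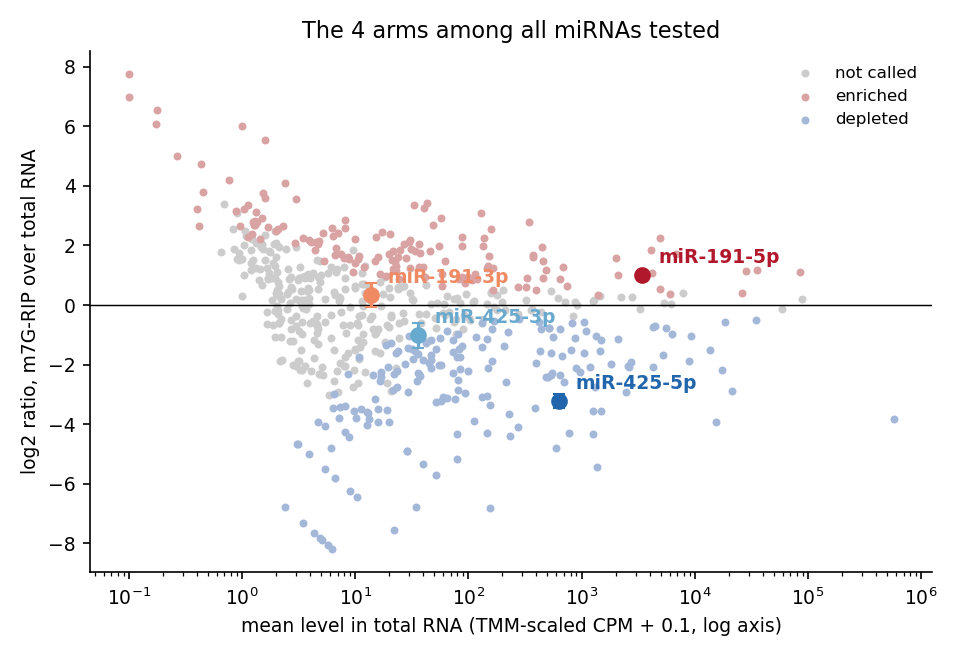
Log2 ratio of m7G-RIP over total RNA against the mean level in total RNA (TMM-scaled CPM plus 0.1, log axis) for the 620 miRNAs tested, coloured by call. The 4 arms are labelled, with bars of 1 SE. miR-191-5p lies at 1.01 and miR-425-5p at -3.22, with both 3p arms between them.

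The order of the mean levels was the same in both groups. In total RNA it was miR-191-5p, miR-425-5p, miR-425-3p and miR-191-3p, with means of 3410, 631, 35.7 and 13.9 CPM, and neighbours in that order did not overlap in any library. In m7G-RIP the last 2 of that order had means of 17.7 ± 10.9 and 17.4 ± 5.49 CPM (SD, n = 3), a difference smaller than their spread. The 4 arms together took 0.333%, 0.331% and 0.349% of the counts in total RNA and 0.763%, 1.01% and 0.745% in m7G-RIP. The difference was 0.501 percentage points (exact two-sided permutation p = 0.1, the smallest that 3 against 3 libraries can give). Nearly all of the cluster's reads in m7G-RIP were miR-191-5p. It made up 83.3% ± 1.56 of them in total RNA and 98.5% ± 0.333 in m7G-RIP (SD, n = 3). MIR425 gave 16.3% ± 1.57 of the cluster's reads in total RNA and 1.22% ± 0.249 in m7G-RIP.

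Both hairpins can be compared within a library, where the scaling between libraries cancels. Reads of miR-191-5p outnumbered those of miR-425-5p by 5.34, 4.84 and 6.13 to 1 in total RNA. In m7G-RIP they did so by 77.2, 103 and 139 to 1. The lowest m7G-RIP ratio was thus far above the highest total RNA ratio. On the log2 scale the ratio went from 2.44 ± 0.17 to 6.69 ± 0.43 (SD, n = 3), a difference of 4.26 or 19.1-fold. The two-sided exact test over libraries gave p = 0.1, and 3 against 3 libraries can give no smaller value. Leaving out any single library kept the difference between 4.04 and 4.47.

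The 3p arms differed in the same direction by less. miR-191-3p had 0.453, 0.325 and 0.378 reads per read of miR-425-3p in total RNA and 2.47, 0.642 and 0.778 in m7G-RIP. The groups did not overlap, but replicate 1 of m7G-RIP stood well above the others. With 0.5 added to each count the log2 ratio differed by 1.48 (exact two-sided permutation p = 0.1, again the smallest possible), and without that replicate by 0.89.

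**Figure D3:**
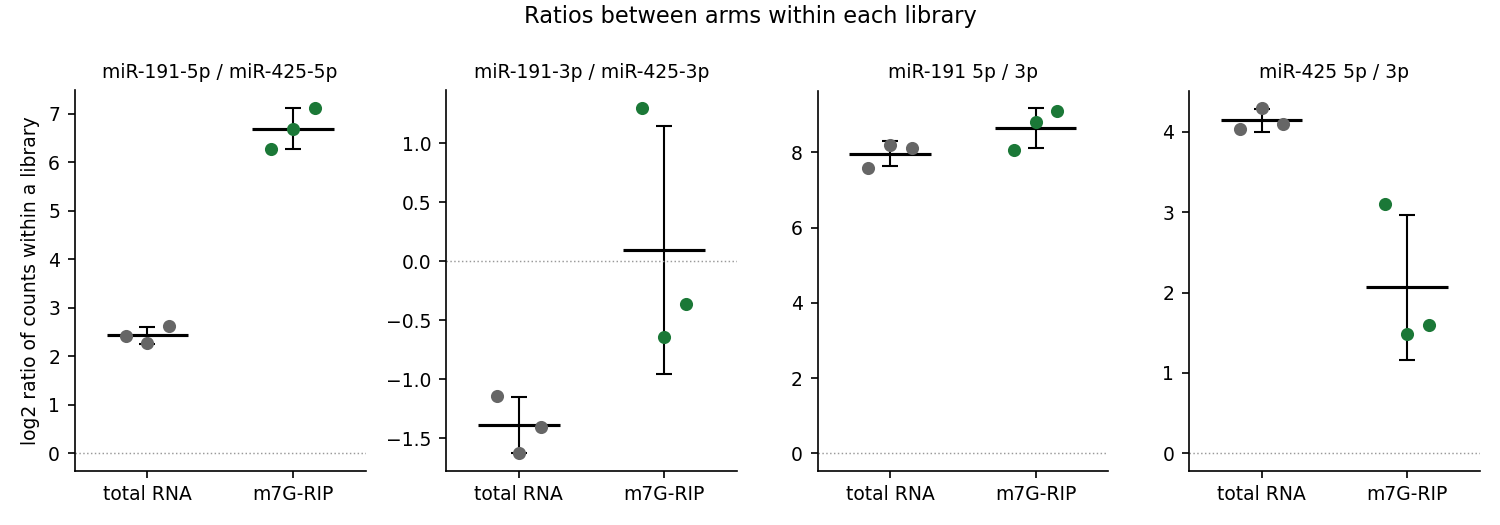
Log2 ratio of counts within each library for the 5p arms of both hairpins, their 3p arms, and the 5p over 3p arm of each hairpin (total RNA grey, m7G-RIP green). Lines are means, bars are SD, and the dotted line marks equal counts. The first panel shows the separation of the 5p arms, from a mean of 2.44 to 6.69. The last shows the 5p arm of miR-425 losing ground to its 3p arm.

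Whether the arms of a hairpin moved alike was tested with an arm by group interaction in edgeR, fitted on both arms of the 139 hairpins in which both passed the filter. In 33 hairpins, 23.7%, the 5p arm gained on the 3p arm in m7G-RIP, and in 24 hairpins, 17.3%, it lost ground (adjusted p under 0.05). MIR425 was among the latter. Its 5p arm outnumbered the 3p arm by 16.4, 19.7 and 17.1 to 1 in total RNA and by 8.57, 2.81 and 3.04 to 1 in m7G-RIP. All m7G-RIP libraries lay below all total RNA libraries, with replicate 1 nearest to them. The log2 arm ratio changed by -2.11 (SE 0.50, edgeR adjusted p 0.0151). The call was lost without total RNA replicate 1 (-2.16, adjusted p 0.0520) and without total RNA replicate 2 (-2.03, adjusted p 0.0605), while the size hardly moved. The 3p arm thus made up 5.37% ± 0.481 of MIR425 reads in total RNA and 20.5% ± 8.72 in m7G-RIP (SD, n = 3).

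MIR191 showed no such shift past the threshold. Its 5p arm outnumbered the 3p arm by 193, 293 and 277 to 1 in total RNA and by 268, 449 and 545 to 1 in m7G-RIP, and the groups overlapped. The log2 arm ratio changed by 0.68 (SE 0.32, edgeR adjusted p 0.128). Without m7G-RIP replicate 1 the change was 0.98 (adjusted p 0.0411), so that library decided the call. The 3p arm made up 0.405% ± 0.0958 of MIR191 reads in total RNA and 0.259% ± 0.0993 in m7G-RIP (SD, n = 3). For scale, the median size of the arm change over the 139 hairpins was 1.63, which lies between the sizes for MIR191 and MIR425.

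**Figure D4:**
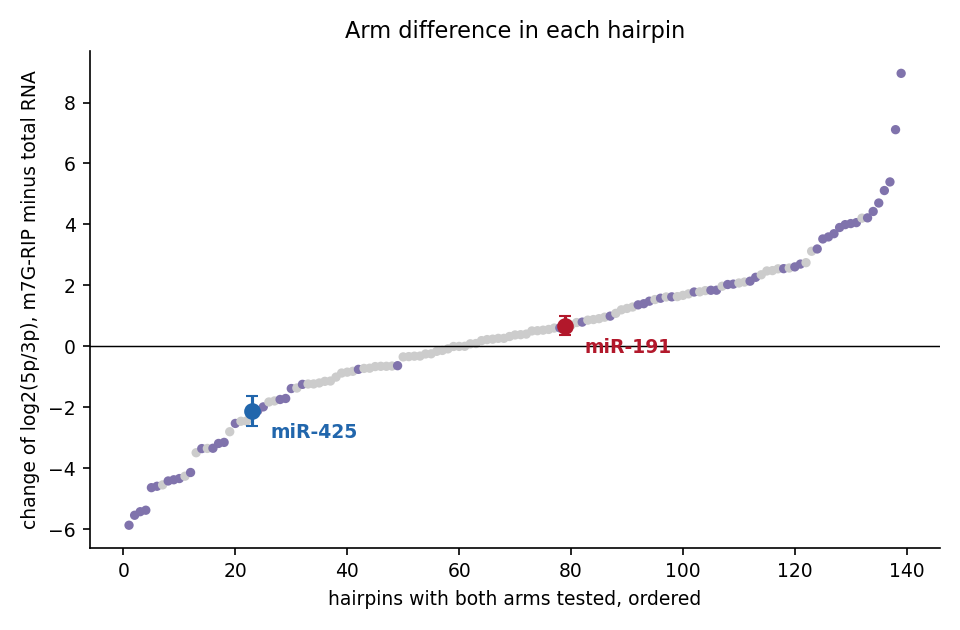
Change of log2(5p/3p) from total RNA to m7G-RIP in the 139 hairpins with both arms tested, ordered from lowest to highest (purple points passed the test, grey points did not). miR-425 lies at -2.11, 23rd from the lowest, and miR-191 at 0.68, with bars of 1 SE.

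The base composition of the arms was counted because m7G is a modified G. miR-191-5p has 5 G in 23 bases (21.7%), miR-191-3p has 6 in 22 (27.3%) and miR-425-3p has 7 in 22 (31.8%). The longest run of G is 2 in both miR-191 arms and 3 in miR-425-3p, where it lies in the seed printed above. Across the 557 tested miRNAs with a mature sequence in the RefSeq table, 89.8% of the 620, miRNAs richer in G tended to have higher log2 ratios (Pearson r = 0.410, Spearman rho = 0.436). These are points from the same 6 libraries and are given as a description. The enriched arm, miR-191-5p, had a G content below the median of 27.8% for the tested miRNAs. miR-191-3p lay near that median and miR-425-3p above it, and neither of them had a called log2 ratio. The depleted arm, miR-425-5p, has no mature sequence there and its G was not counted. Of the called arms, miR-191-5p thus did not follow the trend, and whether miR-425-5p did can not be said. The whole hairpins differ little, with 26.1% G in MIR191 and 28.7% in MIR425.

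The hairpins were also searched on their own strand for 4 runs of at least 2 G, spaced by 1 to 7 bases of any kind, a loose form of the G-quadruplex motif. MIR191 holds such a stretch and MIR425 does not, and 29.2% of the 1560 hairpins in the table hold it. A match of letters describes the sequence and does not show a structure.

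The miRNAs whose pattern over the 6 libraries came closest to each arm were found by the root mean square difference of their centred log2 levels. Closest to miR-191-5p were miR-3934-5p (0.088) and miR-193a-5p (0.10), with log2 ratios of 1.04 and 0.88. Closest to miR-425-5p were miR-186-5p (0.19) and miR-200a-3p (0.22), at -3.06 and -2.92. For miR-191-3p they were miR-493-5p and let-7f-1-3p (both 0.25), and for miR-425-3p they were miR-15b-5p (0.12) and miR-6842-3p (0.25). No arm had another arm of the cluster among its closest miRNAs. Levels were centred over both groups, so this measure depends heavily on the log2 ratio and is not separate evidence. Between the arms of MIR191 the difference was 0.49, between those of MIR425 it was 1.17, and between the 5p arms of the 2 hairpins it was 2.14.

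Other intronic clusters were set beside the pair to see whether arms of a shared host intron usually kept together. The list held 18 arms in MCM7, SMC4, AOPEP and GABRE, of which 17 were tested. miR-24-1-5p, at 0 counts in every library, was not. Of these 17, 2 were enriched, 9 were depleted and 6 did not pass the test, beside 23.5% enriched and 29.2% depleted among all miRNAs tested. Their median log2 ratio was -1.53 against -0.074 for all tested miRNAs. The highest log2 ratio was 2.56, for miR-23b-5p in AOPEP, whose other arm, miR-23b-3p, had -1.12. The lowest was -5.17, for miR-106b-5p in MCM7, whose level went from 78.6 ± 16.4 to 2.19 ± 1.37 CPM (SD, n = 3). miR-25-5p of the same host had 1.48. Clusters in MCM7 and AOPEP thus held both enriched and depleted arms, as the DALRD3 cluster did. Their enriched arms, however, were the scarcer arms of their hairpins. In total RNA miR-25-5p had 453 CPM against 3267 for its other arm, and miR-23b-5p had 159 against 2104. In DALRD3 the enriched and the depleted arm are each the abundant arm of a hairpin. The listed arms in SMC4 and GABRE held no enriched arm. miR-452-3p in GABRE was under the floor of 3 counts in each m7G-RIP library, and the list's median was the same with that arm set to its bound. The list held miR-16-2-3p and miR-24-1-5p but not their partner arms, miR-16-5p (log2 ratio 0.90, enriched) and miR-24-3p (-0.76, depleted). The names of those partner arms do not tie them to 1 hairpin, so the counts per host cover the listed arms only.

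**Figure D5:**
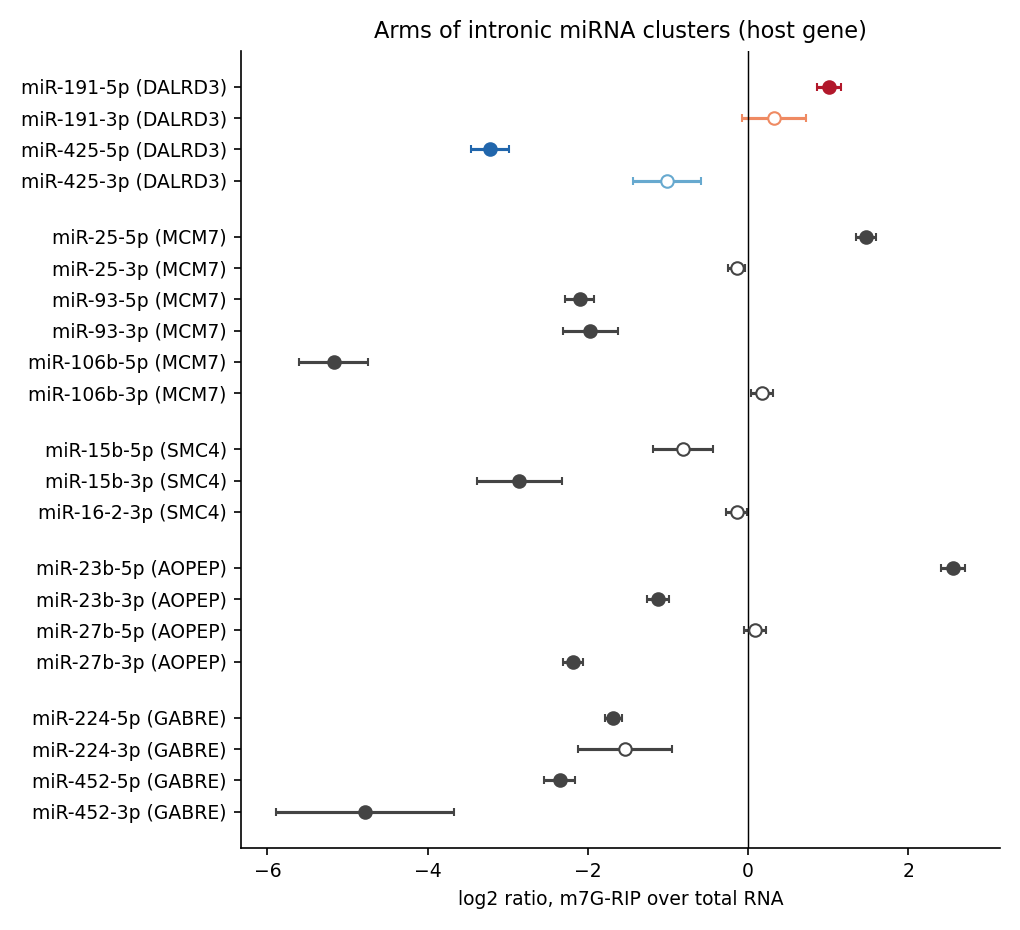
Log2 ratio of m7G-RIP over total RNA with bars of 1 SE for the arms of the DALRD3 cluster (coloured) and of 4 other intronic clusters (dark grey), with the host gene in brackets. Filled points passed the test and open points did not. Arms of 1 host spread widely, from -3.22 to 1.01 in DALRD3 and from -5.17 to 1.48 in MCM7.

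The difference in log2 ratio between the hairpins of the pair was also compared with that of other neighbours. In the reference table, 34 pairs of hairpins lay on the same strand within 1000 bases of each other, had a tested arm each and shared no arm with another hairpin. The more abundant arms of these pairs differed in log2 ratio by a median of 1.14. miR-191-5p and miR-425-5p differed by 4.23, which ranks 2 among the 34, after MIR6777 and MIR33B at 6.29. That first pair rests on scarce arms. miR-6777-3p had 4.59 CPM in total RNA and was not called (edgeR adjusted p 0.430), and miR-33b-3p had 0.950 CPM in m7G-RIP. Beyond the expression filter, no limit on abundance was set for the pairs. This description was chosen after the values of the pair were seen, and some hairpins enter more than 1 pair.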

How the data were processed

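The files are 2 tables of raw counts for mature miRNAs, deposited by the authors, 1 of total RNA and 1 of m7G-RIP. Per their methods, reads were trimmed with Trimmomatic, aligned over their full length with STAR (GRCh38, several alignments and 1 mismatch allowed) and summarised with featureCounts on miRBase. The submitters' processing notes name Bowtie2 in place of STAR. Tool versions, and the counting of reads with several alignments, are not given in the sources used here. Groups and replicate numbers came from sample titles.

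Counts were analysed with edgeR 4.0.16 (R 4.3.3), with TMM scaling, filterByExpr on the groups and quasi-likelihood F tests (robust) that ignored the replicate number, and p-values were adjusted by Benjamini-Hochberg over all 620 miRNAs. Arms were compared by an arm by group interaction with the library as a block, over 139 hairpins. Alternatives used DESeq2 1.42.0, limma 3.58.1, other scalings and filters, and each library left out. Scripts were tested on simulated counts. Intervals were not drawn, and floors (3 counts) cover counting error only, as reads carry no molecular identifiers. Libraries of a group differed beyond counting noise (chi-square per degree of freedom from 22.2 to 112). The named miRNAs were the 4 arms, the 2 closest in pattern to each, the extremes of the comparison list and the most abundant in total RNA. miR-92a-3p, the most abundant in m7G-RIP, took 22.4% ± 2.39 of its counts (SD, n = 3). miR-23b-3p, miR-25-5p, miR-24-1-5p, miR-24-3p, miR-16-2-3p, miR-16-5p, miR-452-3p, the neighbouring pairs and the miRNAs that check the labels were chosen after values were seen. The arms and lists were chosen with earlier results of these data known. Sequences and the hairpin positions came from RefSeq on GRCh38.p14.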

Additional observations from a re-analysis of the deposited data

How the results depend on the processing

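The calls of miR-191-5p and miR-425-5p, and their directions, held in each of the 14 alternatives run, with log2 ratios from 0.64 to 1.55 and from -3.57 to -2.67. The rise of the 5p ratio between the hairpins ran from 4.04 to 4.47, that of the 3p ratio from 0.89 to 1.85, and that of the cluster's share from 0.410 to 2.02 percentage points, the last without the 10 most abundant miRNAs in the total. The counts of enriched and depleted miRNAs stayed within 1.5 times the reported ones. With library size alone the median log2 ratio of all miRNAs rose by 0.55, and 216 miRNAs were enriched and 141 depleted, against 146 and 181. Taking library sizes from all but the 10 top miRNAs raised it by 0.45, with 203 and 151.

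The 3p arms depended on the setting. Leaving out 1 library at a time gave miR-191-3p values of -0.091 to 0.51, with a negative value only without m7G-RIP replicate 1. miR-425-3p ran from -1.77 to -0.92 there, and it passed the threshold without a filter (-1.32), with every library required to hold 10 counts (-1.09), with DESeq2 (-1.02) and with limma-voom (-1.20). The cause was not tested. In the same fits the arm change ran from -2.60 to -1.81 in MIR425 and from 0.47 to 0.98 in MIR191.

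Pairing by replicate number was not used: same-numbered libraries deviated from their group means with correlations of -0.043, -0.10 and 0.064. With the replicate number as a block, log2 ratios were 0.99 for miR-191-5p, -3.26 for miR-425-5p, 0.30 for miR-191-3p and -1.17 for miR-425-3p, with 122 miRNAs enriched and 175 depleted. The MIR425 arm change was -2.09 with the block (limma adjusted p 0.0603), no longer past the threshold, and that of MIR191 was 0.68. Depth limits the 3p arms most, with 30 to 95 counts in each m7G-RIP library for miR-425-3p.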
